A study of Mus musculus with 8 samples.

Results

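Voltage-gated sodium channels carry the inward current that starts and spreads the action potential. Each channel has a large alpha subunit, which forms the pore and its gates, and smaller beta subunits, single-pass membrane proteins with an immunoglobulin-like domain that alter gating, help to place the channel in the membrane and act in cell adhesion. In cortical interneurons, the alpha subunit encoded by Scn1a is needed for sustained fast firing, and its loss in these cells is linked to epilepsy. The 7 subunit genes described here are 4 alpha subunits (Scn1a, Scn2a, Scn3a and Scn8a) and 3 beta subunits (Scn2b, Scn3b and Scn4b), chosen by symbol from the 56576 genes of the deposited table.

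The RNA was bound to HA-tagged ribosomes and was pulled down from synaptosomes, a fraction of pinched-off nerve terminals and attached postsynaptic membrane, of mouse cerebral cortex at postnatal day 15. Control mice were Lhx6-Cre;Erbb4+/+;Rpl22HA/HA (4 libraries, replicates 1, 3, 4 and 5), and mutant mice carried the conditional Erbb4 allele as Lhx6-Cre;Erbb4F/F;Rpl22HA/HA (4 libraries, replicates 2, 3, 4 and 5), so Cre and the tagged ribosomal protein were present in both groups. Cre from Lhx6 marks cells of the medial ganglionic eminence (MGE) and preoptic area, whose cortical interneurons mostly become parvalbumin (PV+) or somatostatin (SST+) cells, and Erbb4, the neuregulin receptor, was deleted where Cre was active. The comparison asks how subunit transcripts on interneuron ribosomes near synapses differ when Erbb4 is lost.

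Erbb4 itself, the check of the genotype labels, had 1640, 5377, 4306 and 3034 normalized counts in controls and 1711, 1648, 1233 and 1048 in mutants, in the order of replicate number. The library labelled control replicate 1 thus lay below 2 mutants. The log2 fold changes of Scn1a, Scn3a, Scn2b and Scn4b in the main test are also given without it. Counts cover constitutive regions along the gene, so reads outside the deleted part may stay in the mutants, which was not tested. The pulldown also held RNA of other cells. The excitatory neuron marker Slc17a7, a vesicular glutamate transporter, had 87106 to 122229 normalized counts over the 8 libraries. Total reads on genes were 51010687 to 80226984 in controls and 58967504 to 74609576 in mutants.

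The libraries were also divided into sets, a division taken from the data and not from any label. Deviations from the genotype means, over all genes tested, correlated positively (0.0226 to 0.10) in the 8 pairs of a control with a mutant drawn within control replicates 1 and 3 with mutant replicates 2 and 3, or within replicates 4 and 5 of both genotypes. They correlated negatively (-0.115 to -0.0292) in all 8 pairs across these sets. The deviations within a genotype cancel out in every gene, so negative values across sets follow on the whole from positive values within them. The negative values are thus no separate support for the sets, and all of these correlations were small. The study mentions sequencing batches, but no label ties libraries to them, and whether the sets are batches was not tested. With 2 libraries per genotype in each set, mutant minus control log2 differences are given without a test. They were -0.31 and -0.97 for Scn1a, 0.052 and -0.35 for Scn2a, 0.56 and 0.47 for Scn3a, -0.29 and -0.35 for Scn8a, -0.14 and -0.26 for Scn3b and -0.44 and -0.79 for Scn4b, the set with replicates 4 and 5 second. Scn8a, Scn3b, Scn4b and Scn1a were thus lower in mutants of both sets, while Scn2a differed in sign. Scn3a was higher in both, which any split of the libraries would give, since every mutant lay above every control. The mean log2 level of MGE interneuron markers differed by -0.56 and -1.02.

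The alpha subunits are close relatives, which bears on how surely a read is placed. The segment below, from Scn8a, codes for part of the linker between the last pair of the channel's repeats, the gate that inactivates the channel. It is shown as an example of the coding sequence from which alpha subunit reads come. Capitals mark the codons of isoleucine, phenylalanine and methionine, the latch of this gate. The 81 bases are coding sequence joined across an intron, read 5′ to 3′ from the GENCODE mouse annotation on GRCm38 (the build also called mm10).
Scn8a, chr15:101032302-101033537, plus strand: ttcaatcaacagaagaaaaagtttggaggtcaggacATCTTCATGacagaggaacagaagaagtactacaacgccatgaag

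Of all windows of 50 bases along the longest-coding transcript, 4.86% in Scn1a, 6.76% in Scn2a and 6.27% in Scn3a also occurred in another alpha transcript, against 0.0527% in Scn8a. Most of each transcript was therefore distinct at that length, but how the counting treated reads with several matches is not given in the sources used here, and the split between Scn1a, Scn2a and Scn3a is uncertain to that extent. Coding sequences of alpha pairs were 74.7 to 83.9% identical, and those of the beta pairs 57.9 to 61.3%. The longest exact run between any beta pair was 15 bases.

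Per kilobase of transcript, Scn1a, Scn2a and Scn8a were the abundant subunits of the 7. Control levels were 4435 ± 1622 (SD, n = 4) normalized counts per kb for Scn1a, 3720 ± 585 for Scn2a and 2871 ± 368 for Scn8a. The library ranges of Scn1a and Scn2a overlapped, as did those of Scn2a and Scn8a, so the order among them was not fixed by these libraries. Scn4b (315 ± 200), Scn3b (289 ± 101) and Scn3a (180 ± 30.1) formed a lower set whose neighbours also overlapped, and Scn2b was lowest at 81.7 ± 39.2. Mutants kept Scn2a at 3366 ± 599 normalized counts per kb, with Scn1a at 2865 ± 1057 and Scn8a at 2291 ± 220. Divided by coding length instead, the beta subunits Scn4b (2297 ± 1459) and Scn3b (1862 ± 650) stood further above Scn3a (295 ± 49.3), since their coding parts are a small share of their transcripts. On that scale Scn2b (590 ± 283) was above Scn3a, which was then the lowest of the 7 by mean, so the order of this pair depends on the length used. Counts cover constitutive regions only, so neither length is the counted length. Orders between genes are therefore approximate on both scales.

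Among the 7 genes, Scn2b was the only one to pass the call rule of the study in limma, and it was lower in mutants. The rule is an unadjusted p of at most 0.05 with a fold change of at least 1.5. With the same rule DESeq2, the tool of the study, did not call Scn2b (log2 fold change -1.13) and called Scn4b lower (-0.87). In limma, Scn3a was the only one of the 7 with a log2 fold change above 0. Tests were made with limma on log2(normalized count + 1) over 31171 genes, of which 3.17% were called lower and 3.98% higher, so 1 call among 7 genes rests on a single gene. None of the 7 had an adjusted p under 0.05 in limma, edgeR or DESeq2, and at an unadjusted p under 0.05 these tools had 2, 1 and 2 of them. The median log2 fold change of the 7 was -0.32, against 0.06 for all genes tested, and 6 of the 7 were below 0, against 46.6% of all genes. The study states that its replicates come from different brains and litters.

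**Figure D1:**
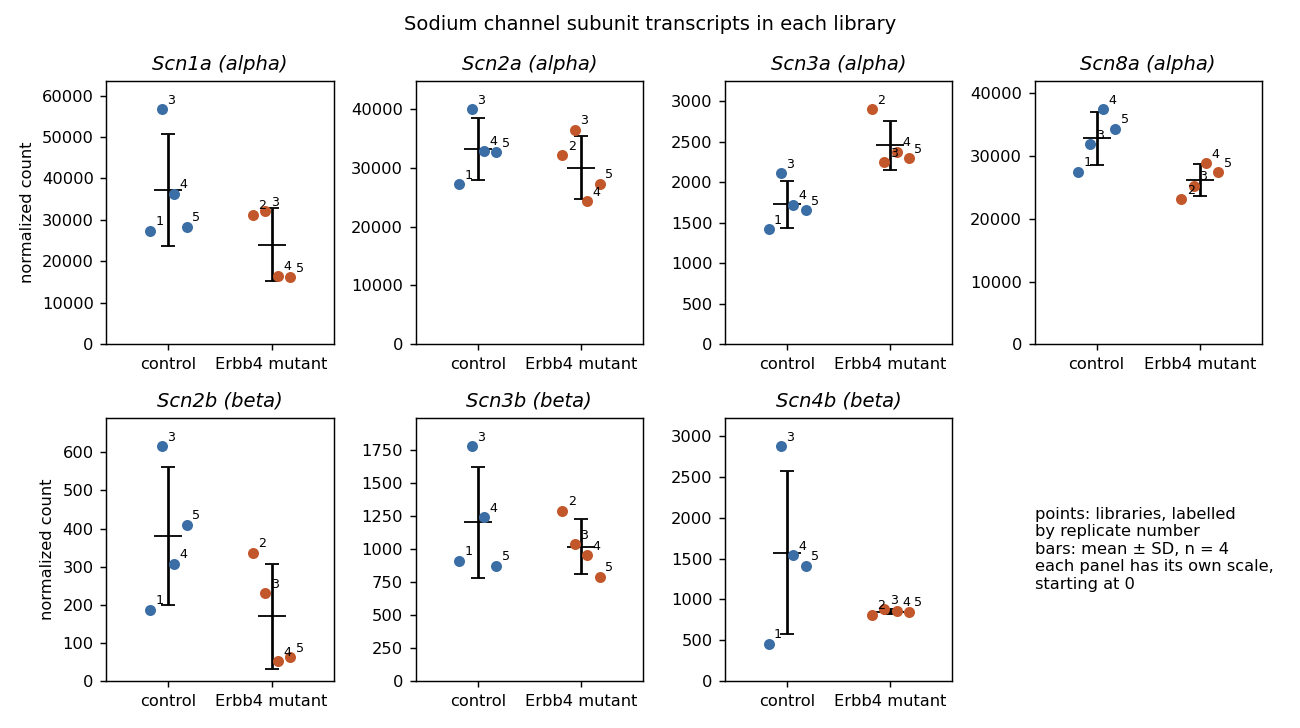
Normalized counts (y axes, each starting at 0 with its own scale) of the 7 subunit genes in the 4 control (blue) and 4 Erbb4 mutant (orange) libraries, with replicate numbers beside the points and bars for the mean ± SD. Scn3a is the gene in which all mutants sit above all controls, and in Scn2b mutant replicates 4 and 5 lie far below the other libraries.

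Scn1a (chromosome 2 of mm10, 66270782 to 66440852) encodes the main alpha subunit of fast-spiking interneurons. Its normalized counts were 27375, 56692, 36314 and 28385 in control replicates 1, 3, 4 and 5 and 31250, 32127, 16552 and 16164 in mutant replicates 2, 3, 4 and 5. Mutant replicates 4 and 5 lay below every control, whereas mutant replicates 2 and 3 lay inside the control range. The means were 37191 ± 13601 and 24023 ± 8860 (SD, n = 4), a log2 fold change of -0.64 (standard error 0.32, 95% confidence interval -1.36 to 0.07), and Scn1a did not pass the call rule (limma unadjusted p = 0.073, adjusted p = 0.58 with Benjamini-Hochberg adjustment). It passed when the library labelled control replicate 1, mutant replicate 2 or mutant replicate 3 was left out, with log2 fold changes of -0.77, -0.80 and -0.81, and was at -0.42 without control replicate 3, -0.49 without mutant replicate 4 and -0.48 without mutant replicate 5.

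Scn2a (chromosome 2, 65620758 to 65767447) encodes the alpha subunit best known from excitatory neurons and unmyelinated axons. Controls had 27266, 40008, 32964 and 32728 normalized counts and mutants 32134, 36507, 24373 and 27296. The groups overlapped over most of their range. The log2 fold change of -0.15 (standard error 0.22, 95% confidence interval -0.63 to 0.34) had an unadjusted limma p of 0.52 and an adjusted p of 0.82, and its sign turned with quantile normalization (0.010) and with an MGE marker term in the model (0.074).

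Scn8a (chromosome 15, 100869858 to 101045938) encodes the alpha subunit that gathers at the axon initial segment and nodes of Ranvier of mature neurons. Its normalized counts were 27511, 31949, 37483 and 34398 in controls and 23168, 25264, 28910 and 27438 in mutants. All mutants lay below control replicates 3, 4 and 5, and mutant replicate 4 lay above the library labelled control replicate 1. The log2 fold change was -0.32 (standard error 0.20, 95% confidence interval -0.76 to 0.11), with an unadjusted limma p of 0.13 and an adjusted p of 0.60.

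Scn3a (chromosome 2, 65457118 to 65567532) encodes an alpha subunit that is prominent in the embryonic brain and recedes after birth. Controls had 1416, 2110, 1720 and 1654 normalized counts and mutants 2900, 2250, 2374 and 2296. Every mutant was above every control, a pattern held by 2.76% of the genes tested. The means were 1725 ± 288 and 2455 ± 301 (SD, n = 4) and the log2 fold change was 0.52 (standard error 0.19, 95% confidence interval 0.09 to 0.94), with an unadjusted limma p of 0.022 and an adjusted p of 0.58. The 1.42-fold ratio of the means is under the fold of the call rule. Its log2 fold change stayed above 0 under all 19 alternatives, from 0.34 to 0.66, and it was called higher in 2 of them, with the MGE marker term (0.66) and without control replicate 3 (0.62). Its unadjusted limma p was above 0.05 without trend (0.054), with a replicate block (0.073) and without mutant replicate 2 (0.069). Without the library labelled control replicate 1 the log2 fold change was 0.43, and Scn3a was not called.

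Scn2b (chromosome 9, 45117876 to 45130070) encodes a beta subunit that is joined to the alpha subunit by a disulfide bond. Its normalized counts were 187, 617, 307 and 411 in controls and 337, 230, 51.3 and 62.5 in mutants. Mutant replicates 4 and 5 were the lowest libraries, but mutant replicates 2 and 3 were above the library labelled control replicate 1, so the groups overlapped. The means were 380 ± 182 and 170 ± 138 (SD, n = 4) and the log2 fold change -1.46 (standard error 0.64, 95% confidence interval -2.86 to -0.05), with an unadjusted limma p of 0.043 and an adjusted p of 0.58. Scn2b was the most thinly read of the 7, with 50 to 601 reads a library. The call was lost without control replicate 3, 4 or 5 or mutant replicate 4 or 5, each left out alone (log2 fold changes from -1.52 to -1.03), and in edgeR (-1.13) and DESeq2 (-1.13). Without the library labelled control replicate 1 it held, at -1.75. Within the sets of libraries described above, mutants differed from controls by -0.29 among replicates 1 to 3 and by -2.63 among replicates 4 and 5, so the lower Scn2b was mainly that of mutant replicates 4 and 5.

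Scn4b (chromosome 9, 45138624 to 45154155) also encodes a disulfide-linked beta subunit, one tied to resurgent sodium current in fast-firing neurons. Controls had 454, 2880, 1538 and 1412 normalized counts, the widest spread of controls relative to their mean among the 7 genes, and mutants 810, 881, 853 and 850. Its 4 mutant values were close together and below 3 controls but above the library labelled control replicate 1. The log2 fold change was -0.61 (standard error 0.45, 95% confidence interval -1.60 to 0.38), with an unadjusted limma p of 0.20 and an adjusted p of 0.65. Without the library labelled control replicate 1 the log2 fold change was -1.12 and Scn4b was called lower, and DESeq2 on all libraries called it too (-0.87). Without control replicate 3, the highest library, it was -0.23 and not called.

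Scn3b (chromosome 9, 40269216 to 40291617) encodes a beta subunit that binds the alpha subunit without a covalent bond. Normalized counts were 911, 1779, 1241 and 873 in controls and 1288, 1033, 954 and 789 in mutants. The groups overlapped widely. The log2 fold change was -0.20 (standard error 0.27, 95% confidence interval -0.80 to 0.40), with an unadjusted limma p of 0.47 and an adjusted p of 0.80, and its sign turned without control replicate 3 (0.0065).

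**Figure D2:**
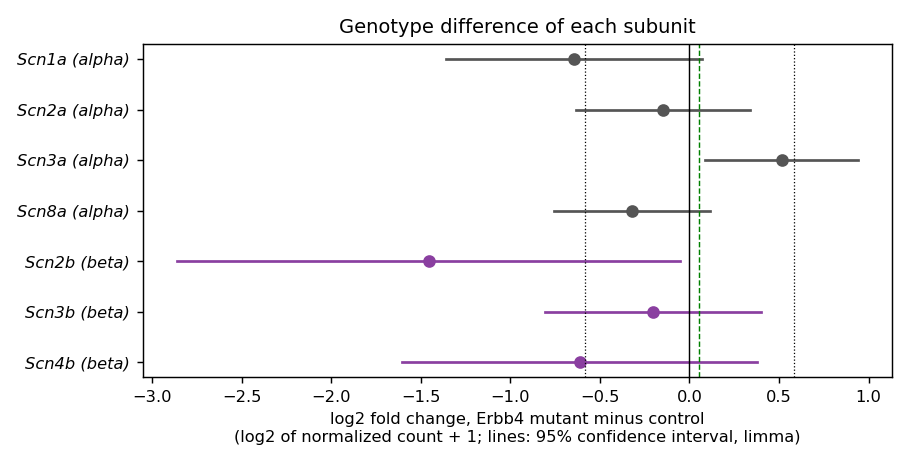
Log2 fold change (x axis, Erbb4 mutant minus control, on the log2 of normalized count + 1) of each of the 4 alpha (grey) and 3 beta (purple) subunit genes, with lines for the 95% confidence interval from limma, dotted lines at a 1.5-fold change and a dashed line at the median of all genes tested. The interval of Scn3a lies above 0, that of Scn2b lies below 0, and the other intervals include 0.

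The alpha and beta groups were compared in each library by the mean log2 level of the 4 alpha genes minus that of the 3 beta genes, a difference between genes that is not set per length and is read only between libraries. It was 4.93, 3.75, 4.31 and 4.25 in controls and 4.51, 4.76, 5.21 and 5.21 in mutants. The library labelled control replicate 1 lay among the mutants, and the other controls lay below all mutants. The group means were 4.31 ± 0.49 and 4.92 ± 0.35 (SD, n = 4), so the beta genes were lower relative to the alpha genes in mutants by 0.61 on the log2 scale. This came from a mean log2 fold change of -0.15 in the alpha genes and -0.76 in the beta genes, to which Scn2b contributed the largest of the 3 changes. Among the alpha genes Scn3a, at 0.52, was the only one above 0, and it raised the alpha mean. The other beta genes, Scn3b (-0.20) and Scn4b (-0.61), lay within the range of Scn1a (-0.64), Scn8a (-0.32) and Scn2a (-0.15). The difference thus rested mainly on Scn3a and Scn2b. The difference was 0.82 without the library labelled control replicate 1 and 0.42 without control replicate 3, was 0.26 with an MGE marker term, and was above 0 under every alternative run. It was 0.29 within replicates 1 to 3 and 0.93 within replicates 4 and 5. No p is given for it, since the genes were chosen with results of these data known.

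The makeup of the alpha transcripts was described by shares, with no test and on full transcript lengths, which are not the counted lengths. As shares of the 4 alpha genes per kilobase of transcript, Scn3a was 1.67, 1.55, 1.57 and 1.69% in controls and 3.14, 2.27, 3.32 and 3.15% in mutants. The controls lay within a narrow range and every mutant lay above it. Scn2a made up 34.4, 31.4, 32.1 and 35.8% in controls and 37.3, 39.4, 36.5 and 40.1% in mutants, again without overlap, though the highest control and lowest mutant were close (35.8 and 36.5%). The Scn1a share was 38.8 ± 6.12% and 31.8 ± 6.95% (SD, n = 4) and that of Scn8a 26.2 ± 4.48% and 26.9 ± 6.70%, both with overlapping groups. Shares of one total move against each other, so these are not independent of the levels above. Among the beta genes, the Scn2b share was 2.67 and 3.59% in mutant replicates 4 and 5, below all other libraries (9.79 to 15.1%), and the shares of Scn3b and Scn4b overlapped between groups.

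**Figure D3:**
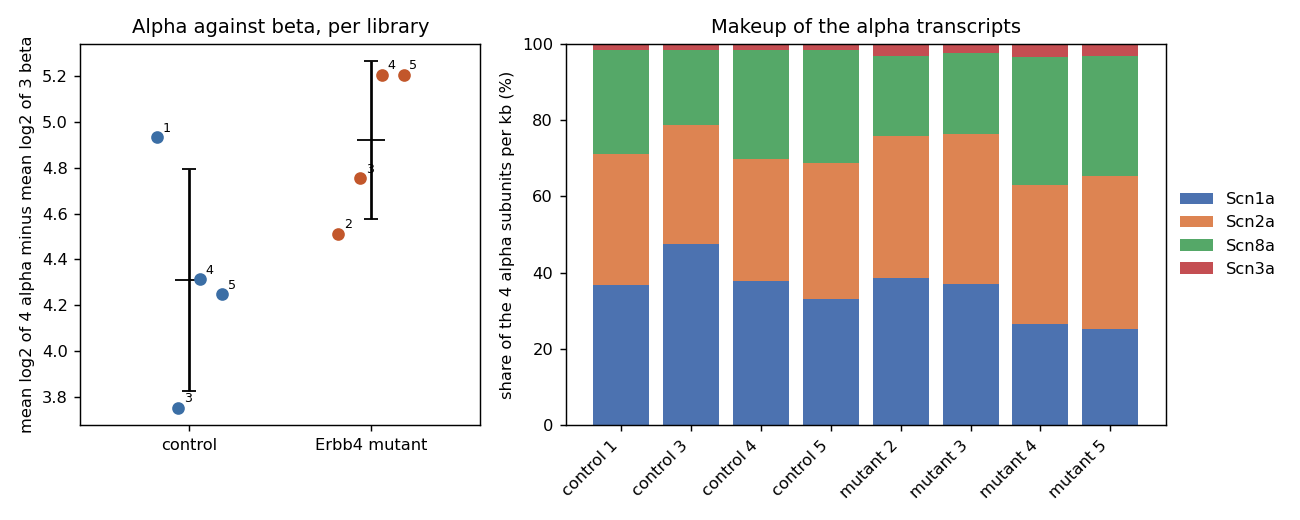
Left, mean log2 of the 4 alpha genes minus mean log2 of the 3 beta genes (y axis, log2 units, not starting at 0) in each control (blue) and Erbb4 mutant (orange) library, with bars for the mean ± SD; right, percent share of each alpha gene per kilobase of transcript in each library. The difference averages 4.31 in controls and 4.92 in mutants, and the Scn3a band is thicker in every mutant (2.27 to 3.32%) than in any control (1.55 to 1.69%).

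Across the 8 libraries the log2 levels of Scn1a ran with those of Scn2b (Pearson r = 0.93), Scn2a (0.89) and Scn3b (0.85), whereas Scn3a and Scn8a ran apart from them and from each other (r = -0.16 for Scn3a with Scn1a, 0.28 for Scn8a with Scn1a and -0.60 for Scn3a with Scn8a). These are descriptions over 8 libraries that share genotype and cell content. By the same measure, among 7840 annotated genes averaging at least 1000 normalized counts, the genes most like the alpha mean were Tbl2 (r = 0.992), the adhesion gene Cntnap1 (0.989) and a joint row of clustered protocadherins (0.985). Those most like the beta mean were Insig1 (0.983), an endoplasmic reticulum protein of sterol control, Pcdh17 (0.981), a protocadherin, and Htr5a (0.980), a serotonin receptor.

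Of 24 genes whose proteins hold, modify or cleave sodium channels, 23 were tested, 1 was called lower and 0 higher, with a median log2 fold change of -0.07. Among all genes tested, 3.17% were called lower and 3.98% higher, so this 1 call is not read as a result about the partners. The called gene was Fgf11, a non-secreted fibroblast growth factor homologue that binds the channel tail, at 363 ± 46.9 normalized counts in controls and 216 ± 58.4 in mutants (SD, n = 4), a log2 fold change of -0.78 (-0.83, still called, without the library labelled control replicate 1). Its adjusted limma p over all 8 libraries was 0.58. None of the 8 scaffold and adhesion genes of the axon initial segment was called, among them Ank3, which encodes the ankyrin that anchors the channels there (log2 fold change -0.08). Of the 9 intracellular modulators 7 were below 0, and of the 6 kinases, ligases and other enzymes tested 2 were, against 46.6% of all genes tested.

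Markers of the labelled interneurons were also lower in mutants, whereas Scn3a was higher. Scn8a was higher in replicates 4 and 5 than in the other libraries of each genotype, and Pvalb ran the other way. For the marker counts that follow, 46.6% of all genes tested were below 0 and 3.17% were called lower. Of 11 MGE interneuron markers, all were below 0 and 3 were called lower, with a median log2 fold change of -0.93. Their summed level was 123070 to 428146 normalized counts in controls and 59512 to 204709 in mutants. Gad1 and Gad2, the enzymes of GABA synthesis, had log2 fold changes of -1.04 and -0.93, and both were called lower. Without the library labelled control replicate 1 they were at -0.92 and -0.97 and were not called, and Pvalb, at -1.89, was not either. All 6 PV+ markers were below 0 and 4 were called lower, with a summed level of 9945 to 65937 in controls and 4366 to 19176 in mutants. Pvalb, the parvalbumin gene, had 269 and 159 normalized counts in mutant replicates 4 and 5, the libraries lowest in Scn1a and Scn2b, and 730 to 5896 in the others. All 6 SST+ markers were below 0 and 1 was called lower, with sums of 56130 to 495924 and 17154 to 198739, and Sst, which was not called, had 31270 to 367992 normalized counts in controls and 5964 to 143143 in mutants. In bulk libraries, fewer cells of a type, less RNA per cell and a larger share of RNA of other cells in the pulldown cannot be told apart.

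Lists for other cells gave a median log2 fold change of -0.15 for 8 excitatory neuron markers, -0.63 for 6 oligodendrocyte markers, -0.60 for 7 markers of other interneurons, -0.37 for 6 microglia markers, -0.11 for 6 astrocyte markers, -0.03 for 4 oligodendrocyte precursor markers and 0.53 for 6 endothelial and mural markers. Oligodendrocyte markers summed to 224894 to 659871 normalized counts in controls and 195276 to 280961 in mutants. With the mean MGE marker level of each library as a term, the log2 fold change of Scn1a was -0.04, that of Scn2b was -0.47 and that of Scn4b was -0.31, none of which passed the call rule. In that fit Scn8a was at -0.41 and Scn3a was at 0.66, called higher (limma unadjusted p = 0.0097). Because the markers themselves differ between genotypes, the part of interneuron content in these differences cannot be told apart from the genotype.

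**Figure D4:**
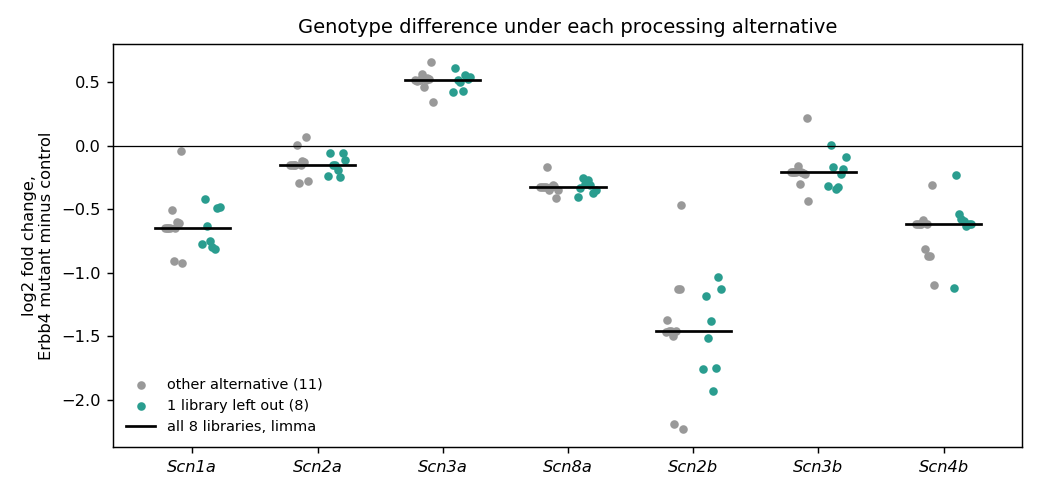
Log2 fold change (y axis, Erbb4 mutant minus control) of the 7 subunit genes with all 8 libraries in limma (black lines), under 11 other processing alternatives (grey points) and with each of the 8 libraries left out in turn (green points). Scn3a stays above 0 and Scn1a, Scn8a, Scn2b and Scn4b stay below 0 throughout, while Scn2a and Scn3b cross 0.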

How the data were processed

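HA-tagged ribosomes were pulled down from cortical synaptosomes, and their RNA was sequenced, in 4 control and 4 Erbb4 conditional mutant libraries. Groups and replicate numbers came from the sample titles, and all 8 columns were matched by name. Libraries were made from amplified low-input RNA. The deposited values are a signal, gene counts that the authors obtained with STAR 2.4.0 on mm10 over constitutive Fast DB regions and divided by 1 DESeq2 size factor per library. Dividing by the smallest step gave whole reads (within 0.01) for 100% of values. Strandedness is not given in the sources used here. Annotated table genes overlap Scn1a (7 genes, highest mean 269 normalized counts), Scn2a (1, 164) and Scn8a (5, 1170), and reads could be shared with them.

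Genes averaging 10 or more normalized counts in either genotype entered limma 3.58.1 in R 4.3.3 (lmFit, eBayes with trend, 8 libraries, no covariate) on log2(normalized count + 1). A fold change on this scale understates that of low genes. Benjamini-Hochberg adjustment covered all genes tested. Calls in limma followed the thresholds of the study, a 1.5-fold or larger change with an unadjusted p up to 0.05. edgeR 4.0.16 and DESeq2 1.42.0 were run on the whole reads as alternatives, with other pseudocounts, filters, quantile normalization, library weights, no trend, an MGE marker term, a replicate block and each library left out. The limma step was tested on simulated data. Transcript lengths are those of the GENCODE transcript with the longest coding part. The study mentions sequencing batches, but no label ties libraries to them, so batch could not be modelled.

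The genes named were the 7 subunits, Erbb4, Lhx6 and Rpl22 as label checks, the listed channel partners that passed the call rule, Pvalb, Sst, Gad1 and Gad2, and the 3 genes most like the alpha and the beta mean. Slc17a7 and Ank3 were named after their values were seen. These genes and lists were chosen with earlier results of these data known. Lhx6 had a log2 fold change of -0.69 and Rpl22 of -0.47, neither called. Some results on related genes and sequences are not reported here.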

Additional observations from a re-analysis of the deposited data

How the results depend on the processing

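Each result was recomputed under 19 alternative settings. The 2229 genes called became 3630 with library weights, 14 at an adjusted p under 0.05 (all lower) and 1194 to 3767 with 1 library left out, lowest without mutant replicates 4 (1194) and 5 (1229) and highest without control replicate 5. The lower share of calls was 44.3%, 55.5% in DESeq2, 53.5% with the MGE marker term and 31.9% without control replicate 3. The 1 subunit gene called became 3 with library weights, 0 without the trend, 0 in edgeR, 0 at an adjusted p under 0.05, and 0 to 3 with 1 library left out: 3 without the library labelled control replicate 1, 2 without mutant replicate 2 or 3, 1 without control replicate 3 (Scn3a, higher, in place of Scn2b), and 0 without control replicate 4 or 5 or mutant replicate 4 or 5. Of all genes tested, 5.24% were called lower with library weights and 2.06% without the library labelled control replicate 1, against 3.17% in the main fit. That share was 3.81% without mutant replicate 2 and 3.78% without mutant replicate 3. DESeq2 called Scn4b, lower, in place of Scn2b, and with the MGE marker term the called gene was Scn3a, higher. The log2 fold change of Scn2a turned to 0.010 under quantile normalization and 0.074 with the MGE marker term. That of Scn3b turned to 0.22 with that term and ran from -0.34 to 0.0065 with 1 library left out, the highest without control replicate 3. The causes were not tested. The alpha minus beta difference ran from 0.42 to 0.82 with 1 library left out and from 0.26 to 0.95 otherwise.

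The shared replicate numbers were not treated as pairs in the main fit, since no label says that they mark pairs. Same-numbered libraries deviated together with correlations of 0.10, 0.098 and 0.082. The values 0.10 and 0.098 were the highest of any control with any mutant, but control replicate 5 correlated best with mutant replicate 4 (0.085). The 8 positive correlations all lay within the sets of libraries given in the report and the 8 negative ones across them. The sets were taken from the same data, so this is no separate support for them. The differences within those sets were added after seeing the data. With a replicate block, 3164 genes and 3 subunit genes were called lower or higher, namely Scn1a (-0.92), Scn2b (-2.23) and Scn4b (-1.10), all lower, and no gene passed an adjusted p of 0.05. In that fit 5.51% of all genes tested were called lower, against 3.17% in the main fit. Replicate 1 was only in controls and replicate 2 only in mutants. Each of them took a block term of its own, so the genotype difference in that fit came from replicates 3, 4 and 5 alone.

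Scn2b had the fewest reads of the 7 genes, with 50 in the lowest library, and the standard error of its log2 fold change was 0.64.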
